A study of Mus musculus with 11 samples.

Results

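The cytosolic ribosomal protein genes of the mouse were described across the synovial membrane of DBA/1 mice with and without collagen-induced arthritis (CIA) on 2 diets. Genes were taken by symbol: those of the form Rpl or Rps with a number and at most a short letter or number ending, together with Rplp0, Rplp1, Rplp2 and Rpsa. This rule found 85 of the 18804 genes in the deposited table, 53 of the large and 32 of the small subunit. Kinases of the Rps6k family were left out. The rule used names alone, so no measured value entered it. The family itself was chosen with earlier results of these data known.

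The synovial membrane lines the joint, and CIA is a widely used mouse model of rheumatoid arthritis raised by immunisation with collagen. The labels put the 11 RNA libraries in 4 groups. CIA had 3 libraries on either diet, while sham had 3 with the regular and 2 with the high-fat diet. The stated question of the series was whether obesity bears on the disease. A growth label gives regular chow for every sample, so the groups follow the treatment label. Neither age nor time after immunisation is given, and nothing says that replicates a, b and c of a group came from different animals. The p-values therefore rest on the spread of these libraries, which may be technical. Total deposited counts per library ran from 13677638 to 17631167.

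A cytosolic ribosome holds 1 copy of nearly every ribosomal protein, so their messenger RNAs are made in balance and rank among the most abundant of any growing cell. Many of these messengers begin with a run of pyrimidines, the 5' terminal oligopyrimidine tract, through which the kinase mTOR controls their translation. Transcription of the genes depends on general promoter factors and on Myc, and free RPL5 and RPL11 bind MDM2 and thereby activate p53.

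Of the 85 genes, 64 had a start listed in RefSeq's GRCm38.p6 promoter table. The tract sought was 1 C followed by at least 7 bases that were each C or T. On the transcribed strand it lay within 15 bases of a listed start in 27 of the 64 (42.2%). Of the 26961 other genes of that promoter table, 2887 (10.7%) held it. Those other genes, used for all shares in this paragraph, were not limited to the genes measured here. The sequences below show the tract, which the choice of genes did not use. Each covers 15 bases either side of the listed start, is read 5' to 3' on the transcribed strand and has the tract in capitals. Rplp2, Rps27, Rps6, Rpl35 and Rpl13a hold a tract, and Rplp0, Rpl3l and Rpl39l hold none in this window.
Rplp2: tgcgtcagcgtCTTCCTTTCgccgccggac
Rps27: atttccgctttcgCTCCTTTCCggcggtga
Rps6: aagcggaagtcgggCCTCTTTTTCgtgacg
Rpl35: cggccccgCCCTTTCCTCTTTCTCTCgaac
Rpl13a: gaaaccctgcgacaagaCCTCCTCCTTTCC
Rplp0: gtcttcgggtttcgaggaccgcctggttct
Rpl3l: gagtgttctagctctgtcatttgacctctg
Rpl39l: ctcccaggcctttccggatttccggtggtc
In GRCm38.p6 the windows lie at chr7:141447636-141447665 (plus strand) for Rplp2, chr3:90213634-90213663 (minus strand) for Rps27, chr4:86857353-86857382 (minus strand) for Rps6 and chr2:39005117-39005146 (minus strand) for Rpl35. Those of Rpl13a and Rplp0 lie at chr7:45128731-45128760 (minus strand) and chr5:115559452-115559481 (plus strand), and those of Rpl3l and Rpl39l at chr17:24727811-24727840 (plus strand) and chr16:10170213-10170242 (plus strand). Each spans the listed start of a gene, the region between promoter and first exon. Rpl3l has a further start in the table, also without a tract. The letters CGGAAG on either strand lay within 250 bases before to 50 after a start in 42 of the 64 genes (65.6%) and in 18.7% of other genes. AAGATGGC on either strand was present in 6 (9.38%) against 3.17%. TATAAA between 40 and 15 bases before the start was present in 1 (1.56%) against 2.41%. These matches describe letters in a window, not bound sites.

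The ribosomal protein genes stood near the top of the expression range. TPM, the deposited value scaled by transcript length and depth, had a median over the 85 genes of 1504, against 10.03 over all genes, each taken from a gene's mean over the 11 libraries. Of the 100 genes with the highest mean TPM, 43 were ribosomal protein genes. By mean over the libraries Rpl23a came first with 3883 TPM, followed by Rpl41 with 3739, Rps27 with 3679.6, Rplp2 with 3556 and Rps12 with 3447. The order differed between libraries, with Rpl23a and Rps27 each highest in 4 of the 11, Rplp2 in 2 and Rpl41 in 1. Rpl23a and Rpl41 encode large-subunit proteins, the latter a very short basic peptide, while Rps27 and Rps12 encode small-subunit proteins. At the other end, Rpl10l, a copy of Rpl10 known from testis, held 1 count in 1 library and 0 in the others, and Rpl6l reached at most 1.63 TPM. These 2 did not pass the filter on low counts, and 83 of the 85 were tested.

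Near-identical copies and processed pseudogenes are common for this family, and the submitters' processing notes name RSEM, a tool that divides shared reads among genes by estimate. Of the values for the 85 genes, 28.4% were not whole numbers at a tolerance of 0.001, against 11.9% of those for other genes. In 14 genes, among them Rpl3, Rpl9, Rplp2 and Rpl31, the count was not whole in any library, while 50 genes had whole counts throughout. How far such division touched a level was not tested.

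The share of each library taken by ribosomal protein genes differed widely within groups. They took 4.92%, 3.11% and 2.77% of the counts in regular-diet sham, 2.10%, 4.56% and 2.08% in regular-diet CIA, 3.78% and 3.58% in high-fat sham, and 4.29%, 2.58% and 2.68% in high-fat CIA, in the order of replicates a, b and c. One library in each group of 3 stood well above its fellows, replicate a of regular-diet sham, replicate b of regular-diet CIA and replicate a of high-fat CIA, and both high-fat sham libraries lay between. Group means were 3.60 ± 1.16% (SD, n = 3), 2.91 ± 1.43% (SD, n = 3), 3.68 ± 0.146% (SD, n = 2) and 3.18 ± 0.958% (SD, n = 3) in the same order of groups. The ranges of the groups overlapped, and both high-fat sham libraries lay inside those of the other 3.

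**Figure D1:**
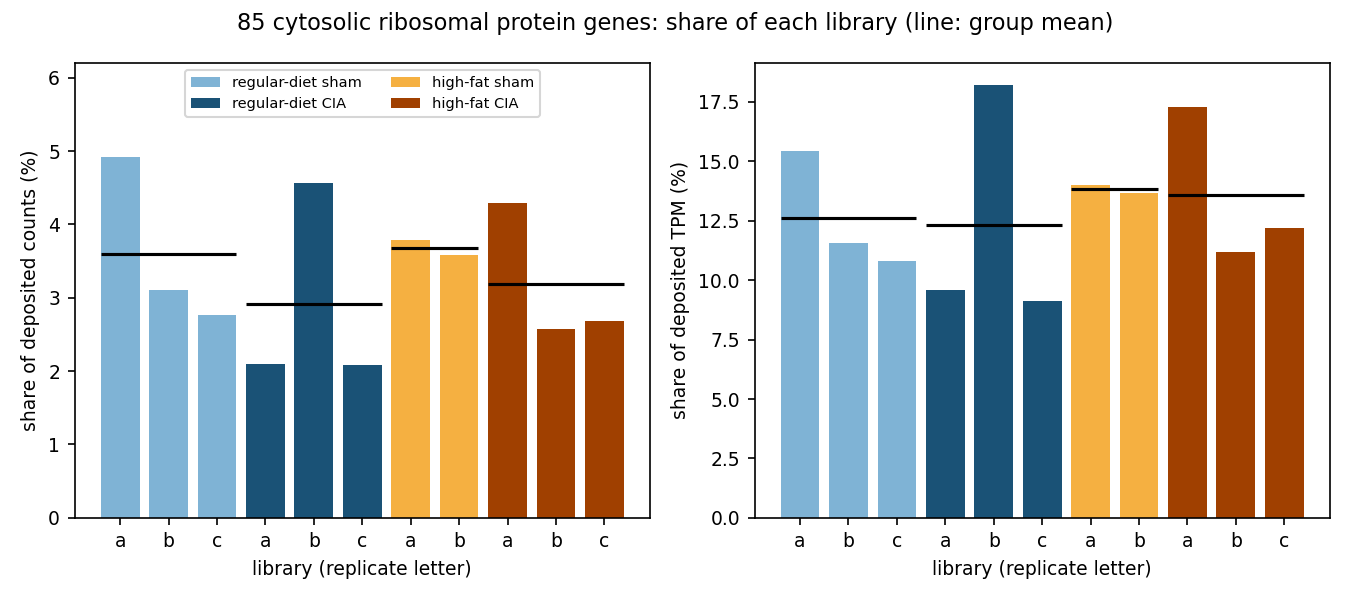
Share of all deposited counts (left, percent) and of all deposited TPM (right, percent) taken by the 85 ribosomal protein genes. Each bar is 1 library, colours are the 4 groups and black lines are group means; shares of counts run from 2.08% to 4.92%, and 1 library of each group of 3 stands above its fellows.

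Measured in TPM the shares were 15.4%, 11.6% and 10.8% in regular-diet sham, 9.59%, 18.2% and 9.11% in regular-diet CIA, 14.0% and 13.7% in high-fat sham, and 17.3%, 11.2% and 12.2% in high-fat CIA. The same 3 libraries led their groups, but their order changed. On counts the highest library was replicate a of regular-diet sham, and on TPM it was replicate b of regular-diet CIA. Effective transcript length, obtained from the deposited counts and FPKM, differed by up to 26.8 bases between libraries over 997 genes with a single transcript, which is a larger share of a short transcript than of a long one. For Rpl38, a large-subunit protein of short messenger, it ran from 66.5 to 81.7 bases.

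The genes moved together from library to library. In CPM (counts relative to the TMM-scaled library total), 69 of the 83 tested genes had their highest value in replicate a of regular-diet sham, and 46 and 28 had their lowest in replicates a and c of regular-diet CIA. Relative to each gene's own mean over 11 libraries, the median gene stood at 0.85 log2 units in replicate a of regular-diet sham, 0.50 in replicate b of regular-diet CIA and 0.43 in replicate a of high-fat CIA. It stood at -0.59 and -0.54 in replicates a and c of regular-diet CIA, and at -0.40 and -0.30 in replicates b and c of high-fat CIA. In TPM, only 4 genes peaked in replicate a of regular-diet sham, 39 in replicate b of regular-diet CIA and 37 in replicate a of high-fat CIA.

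Once this common shift was taken out, less spread was left, though some genes still differed between groups. Over the 81 genes with a mean of at least 10 TPM, the median SD across libraries was 0.47 on the log2 CPM scale and 0.15 after the median gene of each library was subtracted. Rpl13a, a large-subunit protein of the GAIT translation control complex in human cells, kept closest to the common course with an SD of 0.050. Farthest from it were Rpl7l1 with 0.42, Rpl32l with 0.42, Rpl3 with 0.37 and Rpl4 with 0.36. In these relative levels, 20 of the 81 genes lay wholly higher and 22 wholly lower in high-fat CIA than in high-fat sham. For CIA on the regular diet the counts were 2 and 3, for high-fat diet in sham 13 and 11, and in CIA 9 and 6. Groups of 2 or 3 libraries often stand apart, and no share of other genes was counted for relative levels. The balance of the subunits was also nearly constant, with small-subunit genes taking between 42.5% and 43.6% of the ribosomal protein TPM in every library. That share was 42.5% to 42.8% in the 6 regular-diet libraries and 42.8% to 43.6% in the 5 high-fat libraries.

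**Figure D2:**
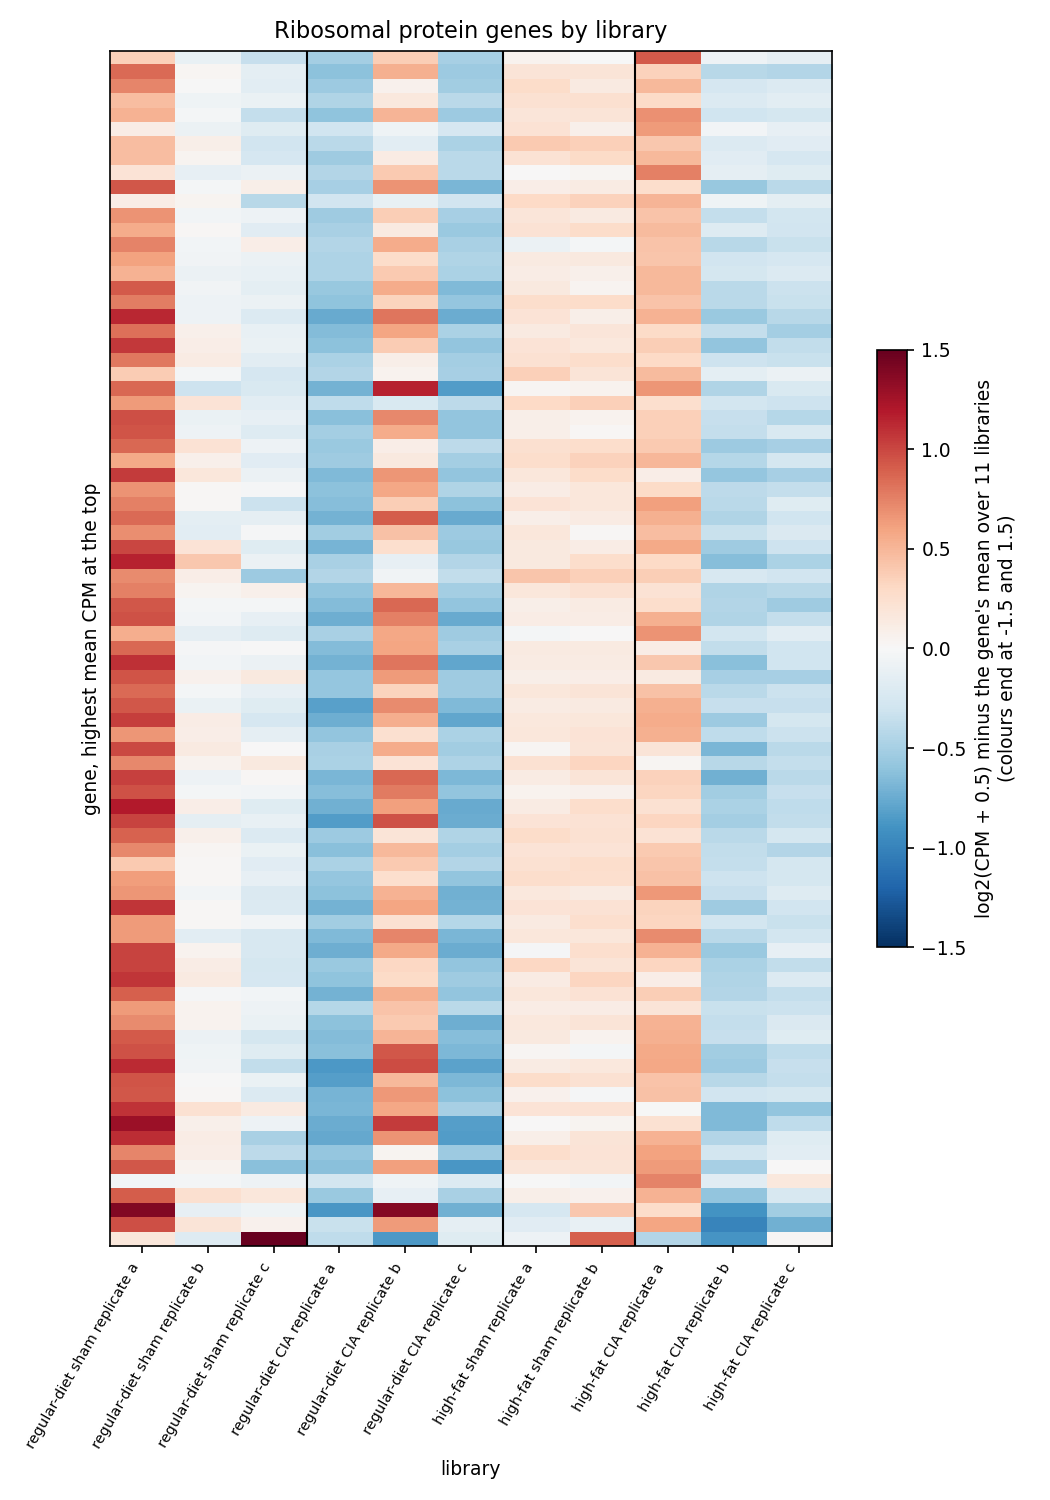
Heat map of the 83 tested ribosomal protein genes (rows, highest mean CPM at the top) in the 11 libraries (columns, black lines between groups). Colour is log2(CPM + 0.5) minus the gene's mean over libraries; whole columns shift together, red in replicate a of regular-diet sham (median 0.85) and blue in replicates a and c of regular-diet CIA (-0.59 and -0.54).

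Short genes in general took part in some of these shifts and not in others. Among other tested genes with an effective length under 300 bases, the median stood at 1.11 log2 units above the gene's own mean in replicate a of regular-diet sham, close to 0.95 for the 27 ribosomal protein genes of that length. In replicate b of regular-diet CIA the other short genes stood at 0.20 and the ribosomal protein genes at 0.58. For replicate a of high-fat CIA the values were -0.25 and 0.43.

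Cell type markers also moved between these libraries, and their part in the shifts was not tested. The adipocyte list, all 7 genes present, summed to 18638 to 26945 CPM in regular-diet sham, 5410 to 16742 in regular-diet CIA, 10867 to 12772 in high-fat sham and 1408 to 4540 in high-fat CIA. Within regular-diet CIA the lowest adipocyte sum, 5410 CPM, was in replicate b, and within high-fat CIA the lowest, 1408 CPM, was in replicate a, the libraries richest in ribosomal protein counts. Replicate a of regular-diet sham went the other way, with the highest adipocyte sum of all libraries. The erythroid list of 6 genes ran from 2701 to 7249, 296 to 1517, 1294 to 6044 and 137 to 1616 CPM in the same group order, and the macrophage list of 5 genes from 508 to 840.4, 797 to 1270.1, 1119 to 1508 and 2066 to 3193. Neutrophil markers, 7 genes, summed to 68.1 to 231, 394 to 1038, 30.0 to 1972 and 1143 to 6854 CPM, and replicate a of high-fat sham lay above replicates a and c of high-fat CIA. The 8 synovial fibroblast markers summed to 12231 to 13717 CPM in regular-diet sham and 11532 to 15919 in regular-diet CIA, below the 23050 to 29411 of high-fat sham and the 21099 to 32179 of high-fat CIA without overlap. Prg4 alone measured 7781 to 8597 CPM in regular-diet sham and 3976 to 9398 in regular-diet CIA. It measured 15194 and 20707 CPM in high-fat sham, most of those sums, and 8275 to 17618 in high-fat CIA. Whether the list without Prg4 separates the diets was not tested. The 4 chondrocyte markers ran from 693 to 932, 547 to 2125, 2324 to 2600 and 420 to 1712 CPM. A list of 6 heat shock genes, set up with sample quality in mind, summed to 1284 to 1523, 1000 to 1798, 1111 to 1307 and 1487 to 2670 CPM. Every high-fat CIA library lay above both high-fat sham libraries. The highest sums of the CIA groups, 1798 and 2670, were in replicate b of regular-diet CIA and replicate a of high-fat CIA. In regular-diet sham the highest sum, 1523, was in replicate c, not a. Whether these genes reflect sample quality was not tested. No marker of these lists lacked counts throughout a group. In bulk tissue, fewer cells of a type and less RNA per cell cannot be told apart.

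CIA was set against sham on the regular diet first. All 83 tested ribosomal protein genes had a lower fitted level in CIA, with a median log2 fold change of -0.43 (quartiles -0.52 and -0.34), against a median of 0.06 over all 14892 tested genes. None passed an adjusted p under 0.05 in edgeR's quasi-likelihood test. Over all tested genes 4 passed, all higher, which is 0.0269%. Of the 83 genes 4 had an unadjusted p under 0.05, against 17.3% of all tested genes, and DESeq2 called 0 of the 83 and 837 of all. The groups did not overlap for 3 of them, Rplp2, Rpl9 and Rps27l, all lower in CIA, while 13% of all tested genes lay wholly lower in CIA. Small-subunit genes had a median of -0.44 and large-subunit genes of -0.41. On log2(TPM + 1) in limma 66 of the 83 genes lay below 0, with a median of -0.09 where that of all genes was 0.29, so the family minus all genes was -0.49 on counts and -0.38 on TPM. The median moved to -0.13 without replicate a of regular-diet sham and to -0.89 without replicate b of regular-diet CIA. In the latter fit edgeR called 0 of the 83 and 2 of 14808 genes in all, and 62 of the 83 had an unadjusted p under 0.05. The share of all genes at that unadjusted p was not counted for this fit. As the family shifted together from library to library, the 62 are not separate observations.

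In mice on the high-fat diet the difference had the same sign for most genes. The median was -0.22 against 0.02 over all genes, and 76 of the 83 lay below 0. None passed in edgeR, where 10.8% of all tested genes did (5.06% higher and 5.75% lower); without either of the high-fat sham libraries edgeR called 0 of all genes. No gene of the family had an unadjusted p under 0.05, against 30.8% of all tested genes, and DESeq2 called 0 of the 83 and 3327 of all. In 7 genes all CIA libraries lay below both sham libraries: Rpl9, Rpl26, Rpl30, Rpl31, Rpl36, Rps15 and Rps27. Over all tested genes 27.7% lay wholly lower. On log2(TPM + 1) 51 of 83 genes lay below 0, with a median of -0.03 against 0.17 over all genes. Without replicate a of high-fat CIA the median was -0.54, and without replicate b it was -0.07.

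With both diets averaged, 79 of the 83 genes lay below 0, with a median of -0.33 against 0.04 over all genes, and on log2(TPM + 1) 60 lay below 0 with a median of -0.06 against 0.23. None passed in edgeR, where 23.8% of all tested genes did (13% higher and 10.8% lower), and 4 of the 83 had an unadjusted p under 0.05, against 39.2% of all tested genes. The 3542 genes called in all became 1236 without replicate a of high-fat sham and 2 without replicate b. DESeq2 called 4, all lower in CIA: Rpl3l, Rpl9, Rpl26 and Rplp2, beside 14.4% of all tested genes called lower. Leaving out replicate b of regular-diet CIA gave 5 calls, among them Rpl11, Rpl26, Rpl36 and Rps15, and a median of -0.55, in a fit that called 4347 of 14808 genes. Leaving out replicate a of high-fat CIA gave 4 calls beside 3742 of all genes, and leaving out replicate c of regular-diet sham gave 2 beside 2440. Without replicate a of regular-diet sham there were 0 calls and the median was -0.19.

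Diet was compared within sham and within CIA. In sham mice the median was -0.13 against -0.01 over all genes, with 64 of 83 genes lower on the high-fat diet, while on log2(TPM + 1) the sign turned, with 11 of 83 lower and a median of 0.16 against 0.18 over all genes. edgeR called 0 of the 83, 0 had an unadjusted p under 0.05, and DESeq2 called 0. Of all tested genes edgeR called 0%, with 1165 at an unadjusted p under 0.05 and 121 called by DESeq2. Without replicate a of regular-diet sham the median was 0.20. Within CIA the median was 0.11 against -0.03 over all genes, with 55 of 83 genes higher on the high-fat diet, and on log2(TPM + 1) it was 0.23 against 0.07, with 9 of 83 below 0. edgeR again called 0, where 3.95% of all tested genes passed (1.05% higher and 2.89% lower), and 1 of the 83 had an unadjusted p under 0.05, against 23.8% of all. DESeq2 called 0 of the 83 and 2006 of all. The 588 genes called in all became 3224 without replicate b of regular-diet CIA and 0 without any 1 of the other 10 libraries. Without replicate a of high-fat CIA the median was -0.19, and without replicate b of regular-diet CIA it was 0.52.

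A difference between the CIA effects on the 2 diets was tested by the interaction term. Its median was 0.21 against -0.02 over all genes, and 79 of 83 genes lay above 0; on log2(TPM + 1) the median was 0.04 against -0.10. edgeR and DESeq2 each called 0 of the 83, and 0 had an unadjusted p under 0.05. Of all tested genes edgeR called 0%, with 635 at an unadjusted p under 0.05 and 21 called by DESeq2. The median was -0.10 without replicate a of regular-diet sham and 0.65 without replicate b of regular-diet CIA. Typical errors were large beside these values, with a median SE of a single gene's log2 fold change of 0.38 on the regular diet, 0.42 on the high-fat diet and 0.57 for the interaction.

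**Figure D3:**
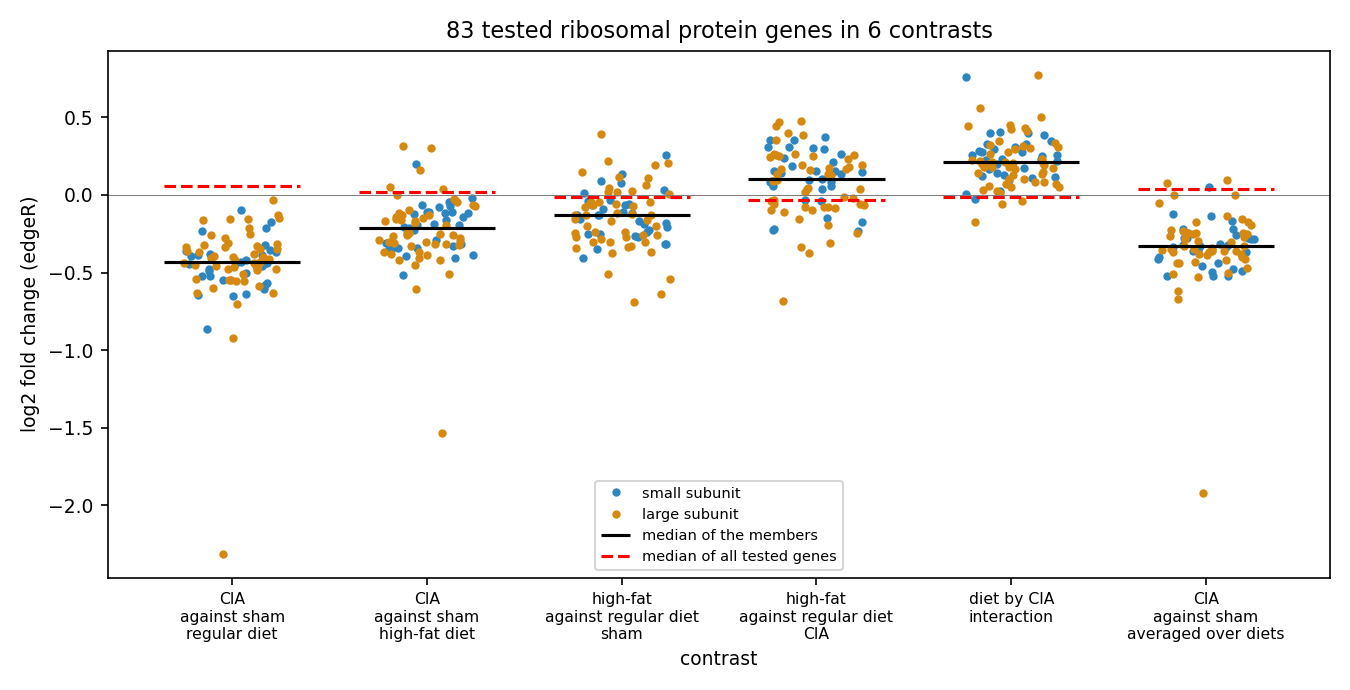
Fitted log2 fold changes of the 83 tested genes in 6 contrasts, with small-subunit genes in blue and large-subunit genes in orange; each point is 1 gene. Black lines are the medians of the family (-0.43, -0.22, -0.13, 0.11, 0.21 and -0.33 from left to right) and red dashed lines those of all tested genes; most points gather around the family median, with Rpl3l far below in the CIA contrasts.

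The stalk of the large subunit, which recruits the translation factor GTPases, is built from Rplp0, Rplp1 and Rplp2. Rplp2 measured 900.3, 533 and 378 CPM in regular-diet sham, 287, 372 and 297 in regular-diet CIA, 449 and 483 in high-fat sham, and 496, 258 and 290.4 in high-fat CIA. On the regular diet every CIA library lay below every sham library, and on the high-fat diet replicate a of CIA lay above both sham libraries. The log2 fold change of CIA against sham was -0.92 ± 0.35 on the regular diet (adjusted p = 0.226), -0.42 ± 0.38 on the high-fat diet (adjusted p = 0.479) and -0.67 ± 0.26 over both (adjusted p = 0.0823). Its partner Rplp0, the anchor of the stalk, measured 1056, 765 and 651 CPM in regular-diet sham, 581, 1067 and 583 in regular-diet CIA, 857 and 821 in high-fat sham, and 1565, 784 and 752 in high-fat CIA. Its highest library was replicate a of high-fat CIA, and the groups overlapped. Rplp0 had log2 fold changes of -0.15 ± 0.37 and 0.30 ± 0.41 for CIA on the regular and the high-fat diet, the latter among the 3 values farthest above the family median (adjusted p = 0.649). Rplp1, the other acidic stalk protein, followed the common course with -0.58 ± 0.46 and -0.17 ± 0.51. No member of the stalk passed the test in any contrast in edgeR.

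Rpl5 and Rpl11 form the particle that carries 5S ribosomal RNA. Rpl5 measured 653, 491 and 422 CPM in regular-diet sham, 369, 518 and 354 in regular-diet CIA, 644 and 572 in high-fat sham, and 699.8, 454 and 473 in high-fat CIA. The groups overlapped on both diets, and its log2 fold changes for CIA were -0.33 ± 0.27 and -0.16 ± 0.29. Rpl11 measured 665, 406 and 415 CPM in regular-diet sham, 262, 559.7 and 277 in regular-diet CIA, 446 and 462 in high-fat sham, and 458, 288 and 295 in high-fat CIA. It had values of -0.44 ± 0.35 and -0.39 ± 0.38, and an adjusted p of 0.260 for CIA over both diets.

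Among small-subunit genes, Rps6 encodes the classic substrate of the S6 kinases. It measured 1020.1, 617 and 604 CPM in regular-diet sham, 439, 823 and 451 in regular-diet CIA, 724 and 703 in high-fat sham, and 855, 499 and 526 in high-fat CIA. Its groups overlapped, with log2 fold changes of -0.39 ± 0.34 for CIA on the regular diet and -0.19 ± 0.38 on the high-fat diet. Rps19, the gene most often mutated in human Diamond-Blackfan anaemia, had values of -0.64 ± 0.34 and -0.41 ± 0.37. Rpsa, known also as a laminin receptor, stayed nearer 0 with -0.21 ± 0.40 and -0.07 ± 0.44. Rps27a, made as a fusion with ubiquitin, had -0.44 ± 0.39 and -0.11 ± 0.44. Rps4x, the X-linked form of S4, had -0.46 ± 0.26 and -0.34 ± 0.29, and Rps12 had -0.45 ± 0.52 and -0.22 ± 0.58. None of these passed in edgeR.

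Rps15 and Rps2 stood at opposite ends of the small subunit in high-fat CIA. Rps15 measured 902, 489 and 411 CPM in regular-diet sham, 275, 689.5 and 289 in regular-diet CIA, 492 and 526 in high-fat sham, and 466, 293 and 309 in high-fat CIA, and on the high-fat diet every CIA library lay below both sham libraries. Its log2 fold change there was -0.52 ± 0.46 (adjusted p = 0.470). Rps2 measured 807, 643 and 658 CPM in regular-diet sham, 517, 924 and 529 in regular-diet CIA, 706 and 714 in high-fat sham, and 1185, 637 and 620.1 in high-fat CIA. Replicate a of high-fat CIA was its highest library and replicates b and c lay below both sham libraries, giving 0.20 ± 0.36 (adjusted p = 0.742).

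In the large subunit, Rpl26 and Rpl36 were, with Rps15, the 3 genes of at least 10 CPM farthest below the family median in high-fat CIA. Rpl26, which in human cells also binds p53 messenger RNA, measured 555, 348 and 371 CPM in regular-diet sham, 242, 387 and 244 in regular-diet CIA, 392 and 421 in high-fat sham, and 342, 251 and 262 in high-fat CIA. All 3 high-fat CIA libraries lay below both high-fat sham libraries, and its log2 fold change of -0.51 ± 0.29 had the smallest unadjusted p of the family in that contrast, 0.112 (adjusted p = 0.261). Rpl36 measured 307, 169 and 159 CPM in regular-diet sham, 90.2, 218 and 102 in regular-diet CIA, 168 and 169 in high-fat sham, and 144, 91.5 and 95.8 in high-fat CIA. It too lay wholly lower in high-fat CIA, by a log2 fold change of -0.61 ± 0.41 (adjusted p = 0.339).

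Rpl9 was the 1 gene of the family whose groups stood apart on both diets. It measured 769, 569 and 444 CPM in regular-diet sham, 378, 420.1 and 375 in regular-diet CIA, 608 and 633 in high-fat sham, and 587, 409 and 397 in high-fat CIA. On each diet all CIA libraries lay below all sham libraries of that diet. Of all tested genes 13% lay wholly lower on the regular diet and 27.7% on the high-fat diet. The share lower on both was not counted, so Rpl9 cannot be set apart from genes in general. Its log2 fold changes were -0.60 ± 0.25 and -0.42 ± 0.28, with -0.51 ± 0.19 over both diets (unadjusted p = 0.0206, adjusted p = 0.0705). Its counts were not whole in any library.

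Rpl3 and Rpl4, long proteins of the large subunit, departed most from the common course among the abundant genes. Rpl3, which lies at the peptidyl transferase centre, measured 705, 669 and 489 CPM in regular-diet sham, 536, 601 and 536 in regular-diet CIA, 804 and 828 in high-fat sham, and 931, 621 and 586 in high-fat CIA. Both high-fat sham libraries lay above all 3 regular-diet sham libraries, as did 19.7% of all tested genes. The log2 fold change of high-fat against regular diet in sham was 0.39 ± 0.27, with the lowest unadjusted p of the family there, 0.175 (adjusted p = 0.794). Rpl4 measured 803, 698 and 652 CPM in regular-diet sham, 600.2, 710.2 and 624 in regular-diet CIA, 859 and 783 in high-fat sham, and 1154, 722 and 679.7 in high-fat CIA, and high-fat against regular diet in CIA gave 0.40 ± 0.25 (adjusted p = 0.354). The libraries of those groups overlapped.

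Other large-subunit genes chosen for their roles followed the family. For CIA on the regular and the high-fat diet, Rpl10, which lies near the catalytic centre and joins the subunit late, had log2 fold changes of -0.33 ± 0.27 and -0.24 ± 0.30. Rpl13a had -0.42 ± 0.40 and -0.31 ± 0.44. Rpl38, required in mice for translation of certain Hox messengers, had -0.46 ± 0.53 and -0.25 ± 0.59, and Rpl39, which lines the exit tunnel, had -0.55 ± 0.45 and -0.11 ± 0.50. For Rpl23a they were -0.43 ± 0.41 and -0.30 ± 0.46, and for Rpl41 -0.70 ± 0.40 and -0.14 ± 0.44. Rps27, of the small subunit, lay wholly lower in high-fat CIA with -0.39 ± 0.40.

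Paralogs of the ribosomal proteins differed widely in level. Rpl3l, the striated muscle counterpart of Rpl3, was listed in TPM at 0.840, 0.760 and 5.35 in regular-diet sham, 0.650, 0.290 and 0.840 in regular-diet CIA, 0.890 and 2.42 in high-fat sham, and 0.550, 0.310 and 1.24 in high-fat CIA. Replicate c of regular-diet sham and replicate b of high-fat sham stood above all other libraries, and no library reached 4 CPM, so each value rests on few reads. Rpl3l had a log2 fold change of -2.31 ± 0.92 for CIA on the regular diet (adjusted p = 0.244), -1.54 ± 0.98 on the high-fat diet (adjusted p = 0.308) and -1.92 ± 0.67 over both, the lowest unadjusted p of the family at 0.0163 (adjusted p = 0.0608). Skeletal muscle markers moved with it: the list of 6 genes summed to 733 CPM in replicate c of regular-diet sham, 142 in replicate b of high-fat sham and at most 41.7 in the others. Their part in the Rpl3l values was not tested.

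Rpl39l, a form of Rpl39 known from testis, was listed in TPM at 13.5, 9.84 and 9.0 in regular-diet sham, 8.02, 15.8 and 8.98 in regular-diet CIA, 8.09 and 8.24 in high-fat sham, and 15.3, 4.68 and 6.16 in high-fat CIA. In sham mice both high-fat libraries lay below all 3 regular-diet libraries, as did 22.1% of all tested genes, and the log2 fold change was -0.69 ± 0.61 (adjusted p = 0.862). In TPM Rpl22l1 lay above Rpl22 in every library, and in CPM, which is not scaled by length, below it in every library. Their mean effective lengths were 226 and 1942 bases, so the order depends on the length scaling. Rpl22, whose product represses its own paralog in mouse cells, was listed in TPM at 189.6, 166 and 149 in regular-diet sham, 146, 239 and 140.4 in regular-diet CIA, 188 and 183 in high-fat sham, and 206, 165 and 173 in high-fat CIA. Rpl22l1 was listed at 811, 588 and 392 in regular-diet sham, 478, 1003 and 376 in regular-diet CIA, 716 and 698 in high-fat sham, and 1030.1, 531 and 766 in high-fat CIA. For CIA on the regular diet their log2 fold changes were -0.32 ± 0.29 and -0.40 ± 0.48, and on the high-fat diet -0.24 ± 0.32 and -0.06 ± 0.53.

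Rps27l, a p53 target in human cells, lay below its parent Rps27 in TPM in every library. It measured 92.9, 58.3 and 55.6 CPM in regular-diet sham, 33.3, 45.1 and 35 in regular-diet CIA, 52.5 and 51.5 in high-fat sham, and 70.7, 32.5 and 41.4 in high-fat CIA. All regular-diet CIA libraries lay below all regular-diet sham libraries, and the high-fat groups overlapped. On the regular diet its log2 fold change of -0.87 ± 0.30 had the lowest unadjusted p of the family, 0.0158 (adjusted p = 0.205), on the high-fat diet it was -0.11 ± 0.33, and the interaction was 0.76 ± 0.45 (adjusted p = 0.989). Rpl7l1, a relative of Rpl7 and of the yeast assembly factor Rlp7, measured 72.3, 72.9 and 70.7 CPM in regular-diet sham, 61.5, 71.3 and 64.5 in regular-diet CIA, 74 and 72.2 in high-fat sham, and 125, 65.9 and 82.8 in high-fat CIA. It lay between 70.7 and 74.0 CPM in all sham libraries and reached its highest value in replicate a of high-fat CIA. High-fat against regular diet in CIA gave 0.47 ± 0.21, the 1 value of the family with an unadjusted p under 0.05 there, 0.0468 (adjusted p = 0.203), and the groups overlapped.

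**Figure D4:**
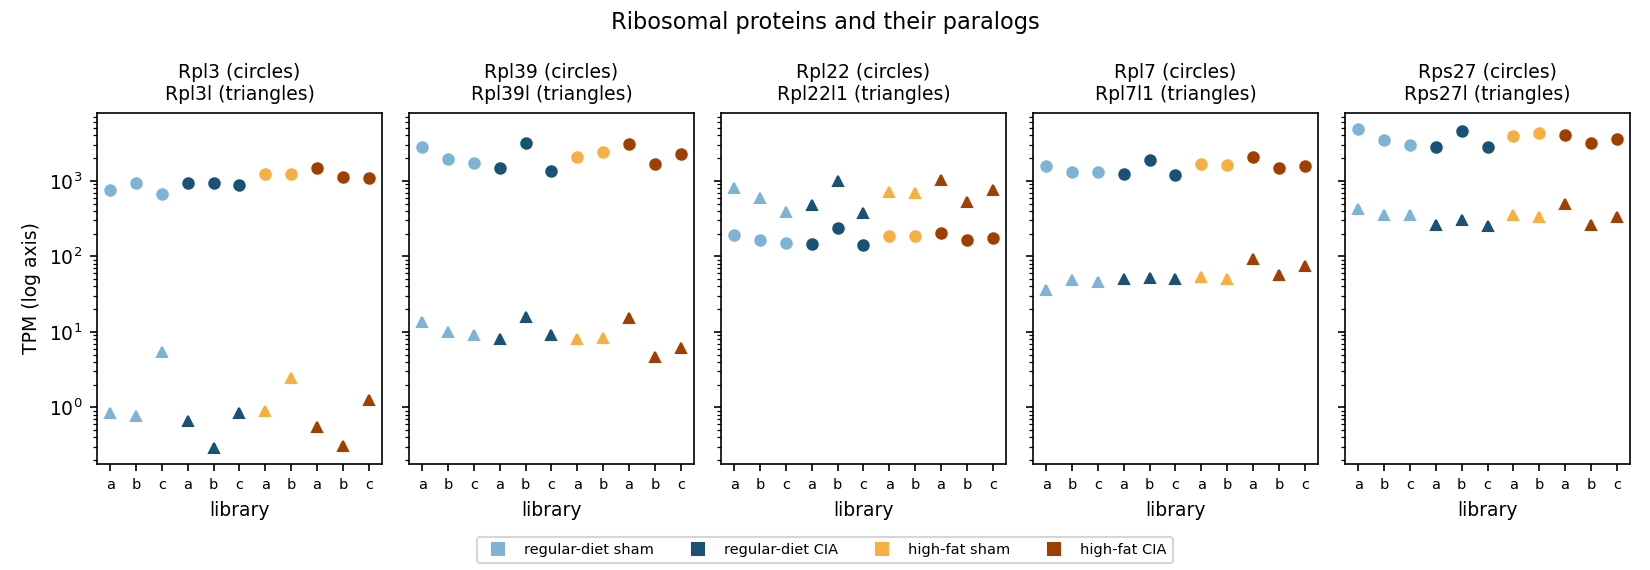
TPM (log axis) of 5 ribosomal proteins (circles) and their paralogs (triangles) in each of the 11 libraries, coloured by group. Rpl22l1 lies above Rpl22 in every library, whereas the other 4 paralogs lie below their counterparts; Rpl3l peaks at 5.35 TPM in replicate c of regular-diet sham.

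Transcript length and fold change went together over all genes. On the regular diet the median log2 fold change for CIA of the other tested genes was -0.73 under 300 bases of effective length (140 genes), -0.64 from 300 to 600 bases (410 genes), -0.44 from 600 to 1000 bases (978 genes) and 0.10 at 1000 bases and over (12822 genes). For ribosomal protein genes it was -0.52 (27 genes), -0.44 (25), -0.41 (16) and -0.32 (15) in the same bins. The family thus lay above other genes of the same length under 600 bases and below them only in the longest bin. On the high-fat diet the other genes had medians of -0.48, -0.51, -0.38 and 0.07, and the ribosomal protein genes -0.23, -0.24, -0.22 and -0.19. Between diets in CIA mice the other genes had -0.38, -0.24, -0.14 and -0.02, and the ribosomal protein genes 0.08, 0.11, 0.07 and 0.24. In sham mice the values were -0.50, -0.32, -0.16 and 0.01 for other genes and -0.24, -0.12, -0.12 and 0.02 for ribosomal protein genes. For CIA over both diets the other genes had -0.60, -0.57, -0.40 and 0.08, and the ribosomal protein genes -0.36, -0.33, -0.31 and -0.25. The part of length in the family's values, and in those of the lists below, was not tested.

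**Figure D5:**
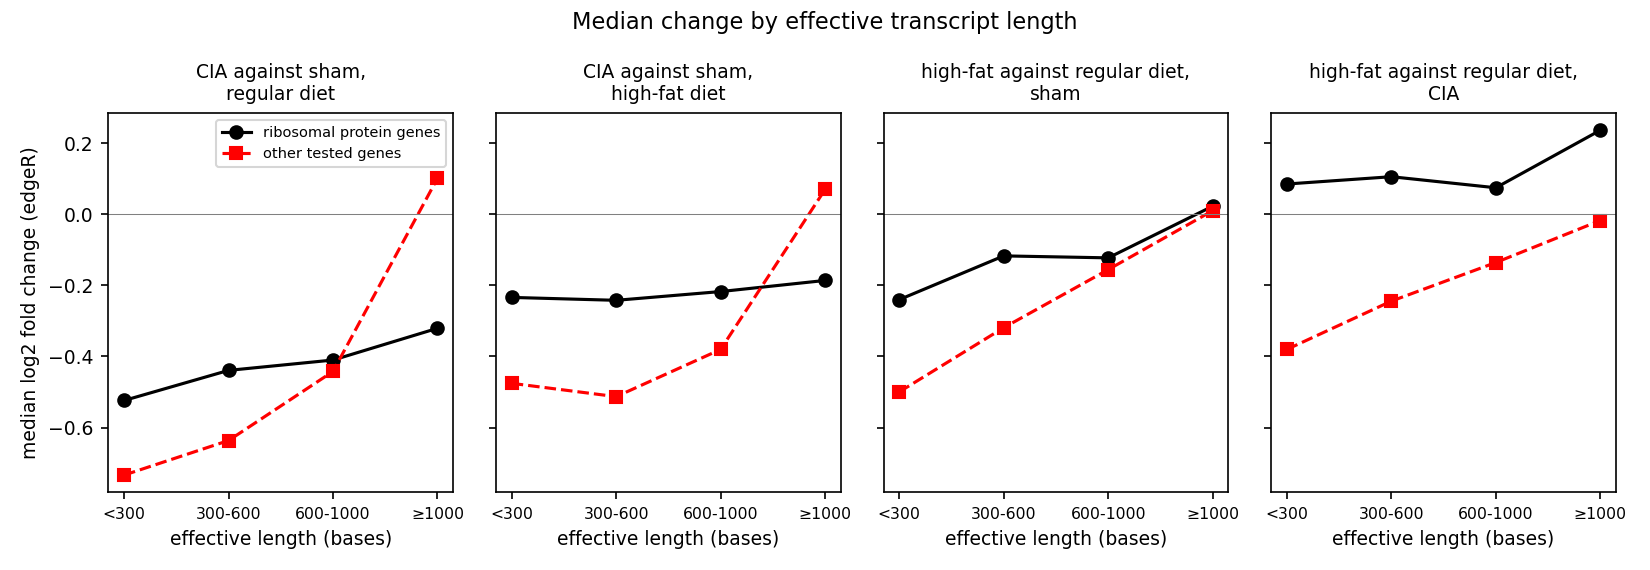
Median log2 fold change (vertical axis) by effective transcript length (horizontal axis, 4 bins in bases) for ribosomal protein genes (black circles) and other tested genes (red squares) in 4 contrasts. For CIA on the regular diet other genes climb from -0.73 in the shortest bin to 0.10 in the longest, while ribosomal protein genes run from -0.52 to -0.32.

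Other genes of the translation machinery were examined as 6 lists. Of 5 further ribosomal proteins in the table whose symbols the rule does not take, 4 were tested. Fau, which encodes S30, had -0.60 ± 0.38 and -0.25 ± 0.42, and Rack1, a small-subunit scaffold, -0.14 ± 0.34 and 0.10 ± 0.38 for CIA on the 2 diets. Neither passed in any contrast in edgeR. The 29 translation factors had a median of -0.19 for CIA on the regular diet and -0.01 on the high-fat diet. edgeR called none on either, 0 and 3 had an unadjusted p under 0.05, and DESeq2 called 0 and 2. Over both diets 1 rose, Eif3a, the largest scaffold of initiation factor 3 (0.56 ± 0.17, adjusted p = 0.0386), and 1 fell, Eif3f of the same complex (-0.38 ± 0.12, adjusted p = 0.0433). Of all tested genes edgeR called 13% higher and 10.8% lower over both diets.

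Ribosome assembly factors build the subunits and are not part of the finished ribosome. Of the 37 genes, 32 lay above 0 for CIA on the high-fat diet with a median of 0.45, of which 3 rose and 1 fell in edgeR. Over all tested genes the median there was 0.02, with 48.9% below 0, and edgeR called 5.06% higher and 5.75% lower. Ddx21, a nucleolar helicase, measured 48.5, 58.8 and 60.8 CPM in regular-diet sham, 73.2, 74.8 and 67.9 in regular-diet CIA, 67.5 and 58 in high-fat sham, and 187, 86.1 and 119 in high-fat CIA. All high-fat CIA libraries lay above both high-fat sham libraries, with a log2 fold change of 1.06 ± 0.29 (adjusted p = 0.0437). The summed heat shock genes separated these groups in the same direction, and their part was not tested. Mdn1, the ATPase that strips assembly factors from the large subunit, rose by 1.30 ± 0.29 (adjusted p = 0.0296) and Utp20 of the small-subunit processome by 0.94 ± 0.27 (adjusted p = 0.0497). Sbds, which helps release eIF6 from the large subunit, had -0.70 ± 0.18 (adjusted p = 0.0370). On the regular diet the list's median was 0.06 with 0 calls in edgeR, 3 genes at an unadjusted p under 0.05 and 1 called by DESeq2. Over both diets 3 rose and 2 fell, the latter Sbds and Nop10, a short protein of the H/ACA particles (-0.66 ± 0.20, adjusted p = 0.0407). The shares called over all tested genes were 13% higher and 10.8% lower there.

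In the list of mTOR and translation control, 23 genes were tested. Eif4ebp1, the mTOR-regulated repressor of cap-dependent initiation, measured 229, 185 and 179 CPM in regular-diet sham, 101, 71.4 and 158 in regular-diet CIA, 105 and 139 in high-fat sham, and 60.6, 59.3 and 50.4 in high-fat CIA. All CIA libraries on each diet lay below all sham libraries of that diet. It fell on the high-fat diet (-1.10 ± 0.29, adjusted p = 0.0433) and over both diets (-0.97 ± 0.20, adjusted p = 0.0113), and was the only call of this list for CIA on the high-fat diet. Summed adipocyte markers were likewise lower in every CIA library than in any sham library of the same diet, and their part was not tested. Over both diets Rheb, the GTPase that activates mTOR, also fell (-0.60 ± 0.15, adjusted p = 0.0209) and Rictor of mTOR complex 2 rose (0.57 ± 0.16, adjusted p = 0.0323). Tsc2, an inhibitor of Rheb, was lower on the high-fat diet within CIA (-0.61 ± 0.15, adjusted p = 0.0499). Among all tested genes edgeR called 13% higher and 10.8% lower over both diets, and 2.89% lower for diet within CIA.

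The Myc network of 11 genes had 2 that rose in high-fat CIA, Mxd1, a Max partner that opposes Myc (2.78 ± 0.77, adjusted p = 0.0463), and Mga, another Max partner (1.00 ± 0.27, adjusted p = 0.0426). Mxd1 measured 27.5, 30.3 and 30.9 CPM in regular-diet sham, 33.6, 86.3 and 40.1 in regular-diet CIA, 39.5 and 21.5 in high-fat sham, and 147, 426 and 58.2 in high-fat CIA. Its highest library was replicate b of high-fat CIA, which also had the highest neutrophil marker sum, 6854 CPM, whose part was not tested. Of 13 genes of the p53 response, 1 rose and 2 fell in high-fat CIA. Eda2r rose by 1.34 ± 0.36 (adjusted p = 0.0446), while Phlda3, an inhibitor of Akt, had -2.07 ± 0.37 (adjusted p = 0.0194) and Bbc3, the pro-apoptotic Puma, -1.08 ± 0.28 (adjusted p = 0.0401). Phlda3 was also lower on the high-fat diet within CIA (-1.46 ± 0.34, adjusted p = 0.0481), and over both diets Zmat3 rose (0.51 ± 0.14, adjusted p = 0.0312). For CIA on the high-fat diet edgeR called 5.06% of all tested genes higher and 5.75% lower. It called 2.89% lower for diet within CIA and 13% higher over both diets. On the regular diet none of the 117 tested genes of these 6 lists was called for CIA in edgeR, where 0.0269% of all tested genes passed; 9 had an unadjusted p under 0.05 and DESeq2 called 1.

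Many calls of these lists depended on single libraries. Of the 10 genes called for CIA on the high-fat diet, 0 were called without high-fat sham replicate a, 0 without replicate b, and between 2 and 10 without any 1 of the other libraries; DESeq2 called all 10 with every library in. A lone high-fat sham library is then taken to vary like the other groups. Phlda3 was called in 8 of the 11 fits that each left out 1 library and Mdn1 in 6, whereas Eda2r was called in 1. Of the 16 genes called over both diets, 0 were called without high-fat sham replicate b and 4 without replicate a, Eif4ebp1, Phlda3, Sbds and Utp20, and between 6 and 15 without any 1 of the others. Both genes called for diet within CIA, Phlda3 and Tsc2, were called in 1 of the 11 such fits, that without regular-diet CIA replicate b. With every library in, DESeq2 called both, but edgeR called neither under RLE scaling, under TMM on other genes, without a filter, without the 20 most abundant genes or with only the groups compared, nor did limma on counts or TPM. Of the 117 genes, 10 were called for CIA on the high-fat diet, 16 over both diets and 2 for diet within CIA. The shares of all tested genes called were 10.8%, 23.8% and 3.95% in the same order. Transcript length went with fold change over all genes, and its part in the rises and falls of these lists was not tested.

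The deposited table also holds comparisons made by the authors with the same libraries. At a q-value under 0.05 the authors' deposited table held 0 ribosomal protein genes in each of its 4 comparisons. Over all genes the authors' deposited table held 445 of 17796 for CIA on the regular diet, 3488 of 17723 for CIA on the high-fat diet, 1372 of 17590 for diet in sham and 695 of 17834 for diet in CIA. The lowest q-values in the authors' deposited table were 0.0810 for Rps27l in CIA against sham on the regular diet and 0.0964 for Rpl26 on the high-fat diet. The authors' deposited medians were -0.44 and -0.22 for those comparisons.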

How the data were processed

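RNA of the synovial membrane of DBA/1 mice was sequenced in 11 libraries; per the labels' protocols it was extracted with Trizol and prepared with a kit of the sequencing provider, and strand is not stated. One deposited table of 18804 genes held all values. Per the file headers the authors gave expected counts per gene, not normalized, and TPM and FPKM values scaled by length and depth. For 4 comparisons the authors' deposited table adds q-values from DESeq2 and fold changes on the log2 scale. The submitters' processing notes name Bowtie2 2.2.5, RSEM 1.2.12, DESeq2 1.4.5 and GRCm38.p6. All 85 ribosomal protein genes were matched by gene ID to RefSeq's GRCm38.p6 annotation, the source of sequences and positions.

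Expected counts were rounded. edgeR's filterByExpr left 14892 genes, scaled with TMM and fitted by the quasi-likelihood method with 1 mean per group over all libraries; p-values are two-sided and Benjamini-Hochberg adjusted over all these genes, and genes under 0.05 were called. The SE was derived from the F statistic and the size of the fold change (log2 fold change over root F). CPM uses TMM-scaled totals; values given as ± after a gene are log2 fold change ± SE. Effective length is the deposited count divided by FPKM and depth, where FPKM was at least 0.5. Depth was 13677638 to 17631167 counts per library, so counting error is small for the abundant genes and large under 1 CPM. The fit was tested on simulated data in which genes varied independently. That test does not cover shifts shared by the family within a library.

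Genes named are those with special roles, the 5 most abundant, the paralogs, the 2 with the lowest unadjusted p per contrast, and the 3 farthest above and below the family median among those of at least 10 CPM in CIA against sham on the high-fat diet; of other lists, up to 3 called genes per contrast. Some single-gene results are not reported here. Members, lists and tests were chosen with earlier results of these data known. Alternatives were other scalings (RLE, upper quartile, TMM on other genes), other filters, DESeq2, limma voom, limma on log2(TPM + 1) and log2(TPM + 0.1), the replicate letter as a block, fewer groups, the 20 most abundant genes left out, and each library left out. Leaving out 2 libraries together and scaling to the family's summed count were added after seeing the data. Versions were edgeR 4.0.16, DESeq2 1.42.0 and limma 3.58.1 under R 4.3.3, with pandas 2.3.3 and numpy 2.4.6 under Python 3.11.15.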

Additional observations from a re-analysis of the deposited data

How the results depend on the processing

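No ribosomal protein gene was called in edgeR in any contrast under any other scaling, filter or choice of groups tried. Exceptions arose only for CIA over both diets, in fits that called many genes of all kinds. DESeq2 called 4 beside 4830 of 14892 genes in all, and the replicate letter as a block called 1 (Rpl3l) beside 2623. Leaving out 1 library called 0 to 5, the 5 beside 4347 of 14808 genes. An alternative added after seeing the data left out replicate a of regular-diet sham and replicate b of regular-diet CIA together. It called 4 there beside 3457 of 14772 genes. With 1 library left out the family's median log2 fold change for CIA ran from -0.89 to -0.13 on the regular diet, -0.54 to -0.07 on the high-fat diet and -0.55 to -0.19 over both. For high-fat against regular diet it ran from -0.33 to 0.20 in sham and from -0.19 to 0.52 in CIA, and for the interaction from -0.10 to 0.65, so the sign of these 3 medians turned with a single library. Whether the letters pair the libraries is not stated. Deviations of same-lettered libraries from their group means correlated between -0.43 and 0.46. With 2 or 3 libraries in each mean, these values cannot decide it. With the block the medians were -0.39 and -0.08 for CIA on the regular and high-fat diet, -0.26 and 0.09 for diet in sham and in CIA, 0.33 for the interaction and -0.24 over both diets. Under the block 1 of the 10 pathway list genes called for CIA on the high-fat diet, 11 of the 16 over both diets and 0 of the 2 for diet within CIA were called. Groups of 2 or 3 libraries limit every comparison. Effective length differed between libraries, and its part in the values of the family and of the other lists was not tested. Counts under about 1 CPM, as for Rpl3l, rest on few reads. No group held 4 libraries, so single libraries were not tested as outliers. Over all tested genes, the first principal component held 53.7% of the variance in log2 CPM. On it replicate b of regular-diet CIA lay at 64.7, within the 50.4 to 121.6 of the high-fat CIA libraries. Its fellows a and c lay at -24.4 and -40.6. What sets that library apart was not tested.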
